A study of Drosophila melanogaster with 4 samples.

Results

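CG6908, CG10560 and their relatives are fruit fly genes of the ecdysteroid kinase-like family, measured here in heads of flies fed an anticonvulsant drug. The family was set by a list of 10 genes, and a gene was kept where a clone named for it alone had a value on at least 1 array. Of the 10 genes, 9 had a clone on the array and 5 had a value, out of 3769 named genes with a value in the whole series. The list was drawn up with the drug response of CG6908 and CG10560 already known, so the drug ratios of the 10 genes are described below without a test.

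The tested flies were unmated Oregon-R wild type males that had eaten food with 3.48 mg/ml ethosuximide for 3 days. Ethosuximide is used against absence seizures and acts on T-type calcium channels. Their counterparts were males of the same strain and age on normal food. All flies were 10 to 11 days old and were kept at 30 per vial, and no other allele or agent is named in the labels. Each of 4 spotted cDNA arrays of 2 colours carried RNA from a pool of drug-fed heads in 1 dye. The other dye carried RNA from a separate pool of normal-food heads. The titles number the arrays as replicates 1 to 4, and each array is counted here as 1 replicate. They do not say whether the pools differed between arrays. The drug-fed sample carried Cy5 on arrays 1 and 2 and Cy3 on arrays 3 and 4. The deposited values are ratios of the channels on a log scale, taken here as log2, and no level of either sample is given. In bulk heads, fewer cells of a type and less RNA per cell cannot be told apart.

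The family is named after an enzyme of the silkworm Bombyx mori that phosphorylates ecdysteroids, the steroid hormones of moulting, so that they can be stored in an inactive form. Its proteins share a kinase-like fold with choline kinases. In insects the family is large, and phosphorylation by its members has been discussed as a route for the disposal of foreign compounds as well as of hormones. Few of the Drosophila melanogaster genes have a known substrate, and most are still called by their annotation numbers. No biochemical role is therefore given below for CG6908, CG10560 or their neighbours.

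All 10 genes carried a family code among their RefSeq synonyms, in which the first number marks a clade of related genes. RefSeq lists 51 intact genes with such a code, in 39 clades, and the 10 genes come from 8 of them. CG10553 (code Dro17-1) and CG10560 (code Dro17-3) belong to the same clade, 17. CG6830 (code Dro24-1) and CG6834 (code Dro24-2) share clade 24, and CG6908 (code Dro23-0) is the only intact gene of clade 23 listed. RefSeq's synonyms thus place each of the 10 genes in the family.

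The genes lie in 2 runs of family neighbours on chromosome arm 3R. CG6830, CG6834 and CG6908 stand next to each other, followed by CG18765, in a run of 4 family genes. The other 7 lie in a run of 26 intact genes and 2 pseudogenes, with no other protein-coding gene listed between them. CG10559, CG10553, CG10560 and CG10562 are direct neighbours there, in that order, and CG10550 lies 3 genes before CG10559. Outside the ends of the longer run, the nearest 5 protein-coding genes on each side included 2 with a value, CG11857 at 0.39 and Kdsr at -0.15 on array 1 alone. None of the 10 genes nearest to the shorter run had a value.

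**Figure D1:**
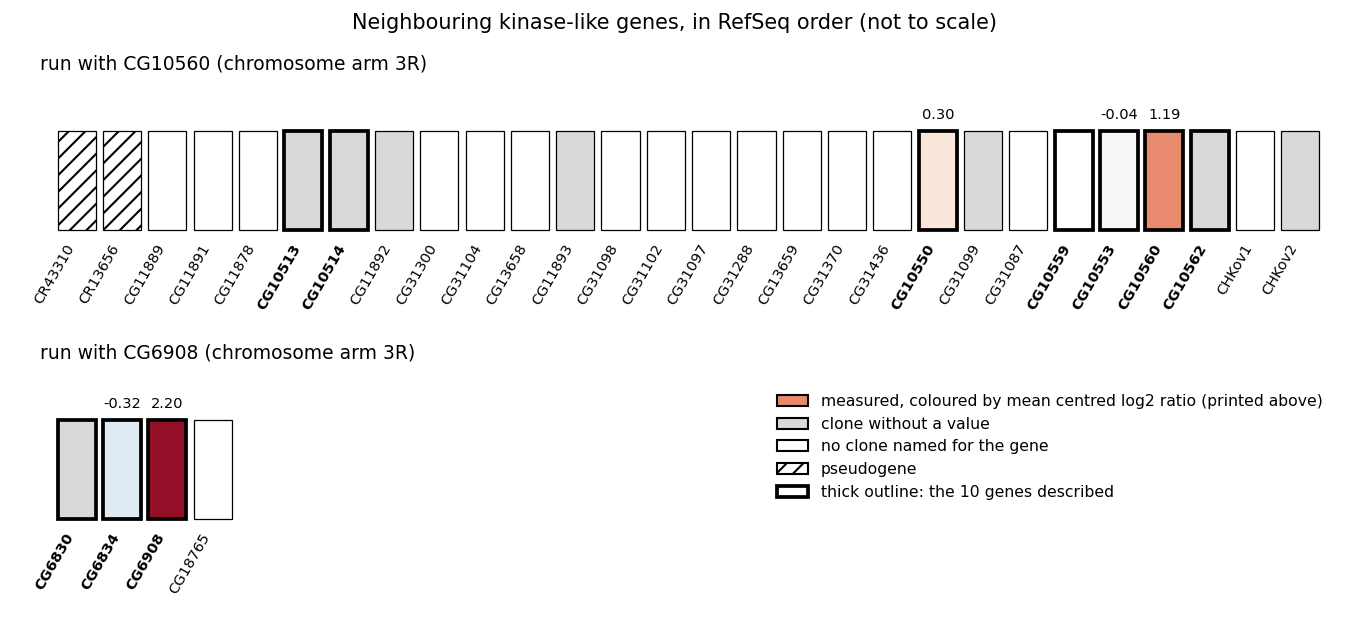
Neighbouring family genes on chromosome arm 3R, in the order of RefSeq Release 6 and not to scale. Colours and the numbers above the boxes give the mean centred log2 ratio of drug-fed over normal-food heads, grey boxes mark genes whose clone had no value, and white boxes genes without a clone named for them. CG10560 stands at 1.19 beside CG10553 at -0.04, and CG6908 at 2.20 beside CG6834 at -0.32. The numbers for CG6834 and CG10550 come from array 1 alone.

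CG6908 and CG10560 had higher transcript ratios in drug-fed heads, by 4.60-fold and 2.28-fold, while CG10553, the clade partner and direct neighbour of CG10560, was near 0. These values read the deposited columns as Cy5 over Cy3 and turn the sign on the dye-swap arrays. That reading was taken as likely, because the study's text writes the scanner's channels as 635 over 532 in its spot filter on uniformity. These are Cy5 and Cy3, and the labels list Cy5 first on every array. The numerator of the deposited ratio is not stated, and the other reading is given further on. After turning, each array was centred on the median of the clones measured on at least 3 arrays, because the arrays had offsets of 0.74, 0.16, -0.24 and -0.63 and the family's genes were missing from different arrays.

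CG6908 had deposited values of 3.11 on array 1, 2.10 on array 2 and -1.66 on array 4, and none on array 3. The sign on the dye-swap array was thus opposite to that on arrays 1 and 2. Turned and centred, CG6908 stood at 2.37, 1.94 and 2.30 on arrays 1, 2 and 4. The arrays lay within 0.43 of each other, and the mean was 2.20 ± 0.23 (SD, n = 3). The spread was close to that of the typical clone, since the median SD over arrays of all 980 clones measured on at least 3 arrays was 0.25.

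CG6908 ranked 3 of 5095 clones on array 1, 2 of 3169 on array 2 and 8 of 812 on array 4, counted from the highest ratio. With the dye-swap columns left unturned, its array 4 value was instead 8 of 812 counted from the lowest. The unturned mean of 0.67 ± 2.58 (SD, n = 3) ranked 1 of 980, with arrays on either side of 0. Under the reading used here, the mean of CG6908 was also the highest of all 980 clones measured on at least 3 arrays. On the deposited values without centring it was 2.29 ± 0.74 (SD, n = 3), again the highest mean. The duplicate spots of CG6908 differed by 0.25 on array 1 and 0.10 on array 4, but by 0.88 on array 2. Over all clones of array 2 the median difference between duplicate spots was 0.18 and the upper decile began at 0.65. Leaving out array 2 gave a mean of 2.33.

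CG10560 had deposited values of 1.52 on array 2, -0.84 on array 3 and -0.50 on array 4, and none on array 1. As for CG6908, the dye-swap arrays had the opposite sign. Turned and centred, CG10560 stood at 1.36, 1.07 and 1.13 on arrays 2, 3 and 4, with a mean of 1.19 ± 0.15 (SD, n = 3). It ranked 8 of 3169 clones on array 2, 53 of 1101 on array 3 and 50 of 812 on array 4, and 6 of 980 by its mean. With the columns unturned, the array 3 and array 4 places were 1049 of 1101 and 763 of 812, and the mean ranked 882 of 980. Its arrays were closer together than those of most clones, since 19.9% of the 980 clones had a smaller SD. Its duplicate spots differed by at most 0.16 on any array. Without centring the mean was 0.95 ± 0.52 (SD, n = 3), because the missing array 1 had the highest offset.

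CG10553 was the only one of the 10 genes with a value on every array. Its deposited values were 0.96, 0.29, 0.43 and 0.94 on arrays 1 to 4, all above 0. Turned and centred they became 0.22, 0.13, -0.19 and -0.31. The mean was -0.04 ± 0.25 (SD, n = 4), and the gene ranked 573 of 980, or 129 of 980 with the columns unturned. The arrays with the drug in Cy5 lay above 0 and those with the drug in Cy3 below it.

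**Figure D2:**
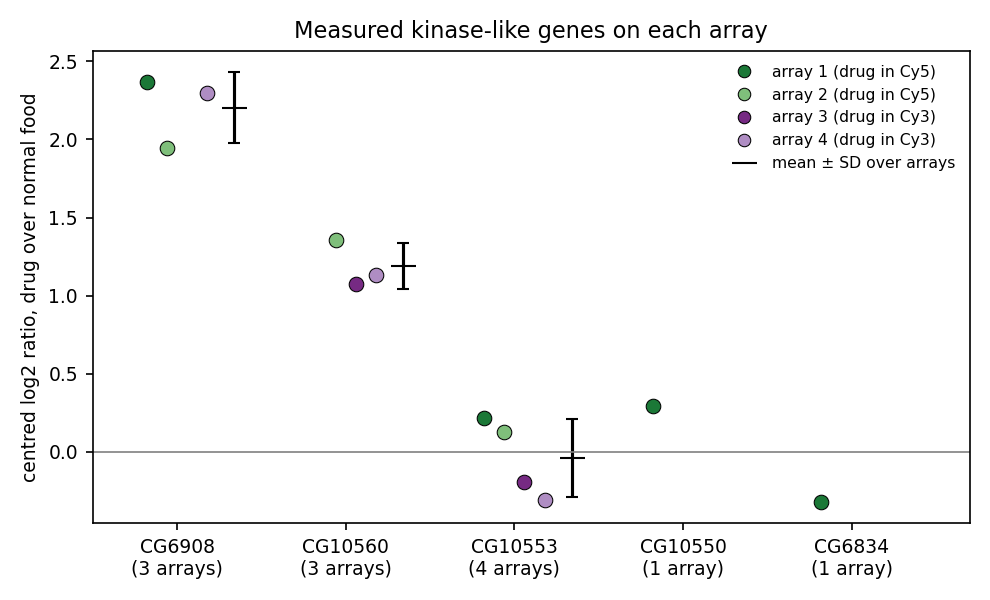
Centred log2 ratios of drug-fed over normal-food heads for the 5 measured genes, with 1 point per array coloured by array and dye orientation, and the mean ± SD over arrays beside genes measured on several arrays. CG6908 lies between 1.94 and 2.37 and CG10560 between 1.07 and 1.36, apart from CG10553, CG10550 and CG6834, which lie between -0.32 and 0.30.

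CG10550 and CG6834 just met the condition for being kept, with a value on array 1 alone. CG10550 had duplicate spots at 0.95 and 1.13 as deposited, or 0.30 after centring, and 77.2% of the clones on array 1 were lower. CG6834, which neighbours CG6908, had spots at 0.21 and 0.63 as deposited, or -0.32 after centring, and 22.0% of clones were lower. The duplicate spots of CG6834 differed by 0.42, against a median of 0.24 over array 1. A second clone of CG6834 had no value. These single values carry no replicate error. The duplicate spots of array 1 had a Pearson correlation of 0.39 over all clones, against 0.61, 0.79 and 0.69 on arrays 2, 3 and 4.

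CG10562, CG10513, CG10514 and CG6830 fell just outside, with a clone on the array and no value on any of the 4 arrays. CG10559 had no clone named for it. Of the 10 clones named for these genes 5 had a value, as did 53.5% of all clones named for 1 gene and 45.9% of all clones. Values on at least 3 arrays were present for 3 of the 10, against 6.99% of clones named for 1 gene. The 3 include CG6908 and CG10560, which were listed with their drug response known, so nothing is read from this count. A missing value means that the spot did not pass the authors' filters on signal, uniformity or flags, and does not show that the transcript was absent. Array 1 measured 4 of the genes, array 2 measured 3, array 3 measured 2 and array 4 measured 3.

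Differences between genes on the same array do not depend on how the array was centred. CG10560 exceeded CG10553, its clade partner, by 1.23 on array 2, 1.27 on array 3 and 1.44 on array 4. The mean difference was 1.31 ± 0.11 (SD, n = 3), and all of these arrays had the same sign under the reading used here. With the columns unturned, every difference on arrays 3 and 4 in this paragraph would have the opposite sign. CG6908 exceeded CG10553 by 2.15, 1.82 and 2.61 on arrays 1, 2 and 4, a mean of 2.19 ± 0.40 (SD, n = 3). On the arrays that measured both genes, CG6908 was above CG10560 by 0.59 on array 2 and by 1.16 on array 4. Within the shorter run, CG6908 was above CG6834 by 2.69 on array 1. Long cDNA clones can bind transcripts of close relatives, and whether these clones did so was not tested.

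**Figure D3:**
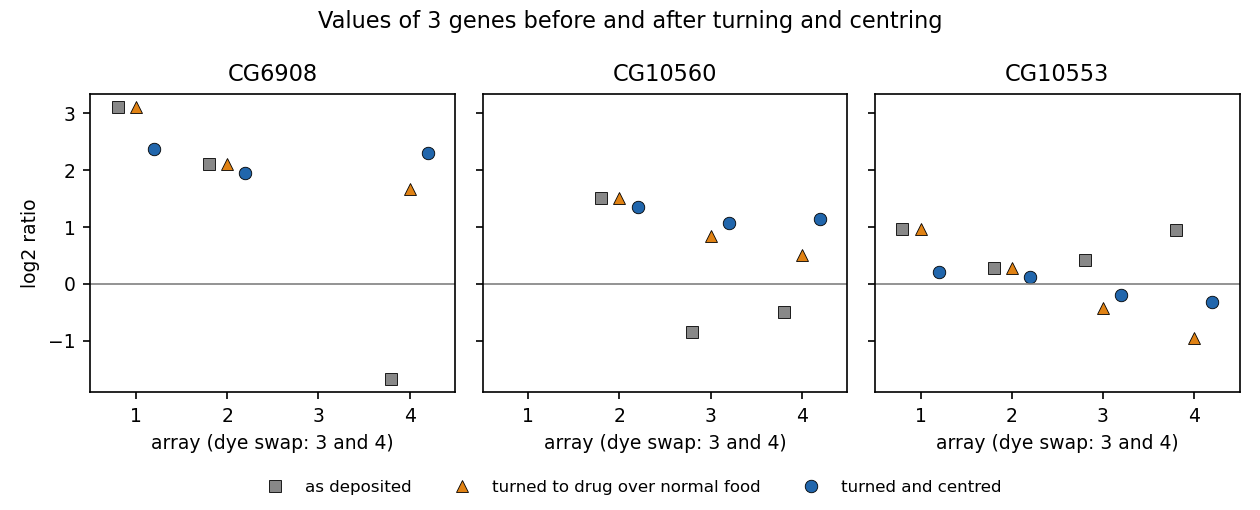
Log2 ratios of CG6908, CG10560 and CG10553 on arrays 1 to 4 as deposited (squares), after turning the dye-swap arrays 3 and 4 to drug over normal food (triangles), and after centring as well (circles). The deposited values of CG6908 and CG10560 change sign between the dye orientations, while those of CG10553 lie above 0 on every array.

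Of the 3 genes on at least 3 arrays, 2 were among the clones past limma's threshold of 0.05 for the adjusted p with a higher ratio, a call made for 1.22% of the 980 clones. The genes were chosen from this contrast, so nothing is read from that count. The number of clones called higher was 12, and it was 5, 19, 7 and 10 without arrays 1 to 4. CG6908 and CG10560 were above 0 on every array that measured them, as were 15.4% of the 980 clones, and above 1 on every such array, as were 0.612%. With the columns unturned neither gene met either condition, which 12.1% of clones met for 0 and 0.00% for 1. Without centring CG6908 was called and CG10560 was not, beside 0.510% of clones called higher.

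Under the other reading, every deposited column already has the drug-fed sample on top. CG6908 would then have centred ratios of 2.37, 1.94 and -2.30 on arrays 1, 2 and 4, with a mean of 0.67 ± 2.58 (SD, n = 3). CG10560 would have 1.36, -1.07 and -1.13 on arrays 2, 3 and 4, with a mean of -0.28 ± 1.42 (SD, n = 3). For both genes the sign would then differ between the dye orientations. CG10553 would instead have 0.22, 0.13, 0.19 and 0.31, a mean of 0.21 ± 0.08 (SD, n = 4). No clone was called in limma's fit under that reading (0.00% of 980), where 32 had an unadjusted p under 0.05 with a higher and 54 with a lower ratio.

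**Figure D4:**
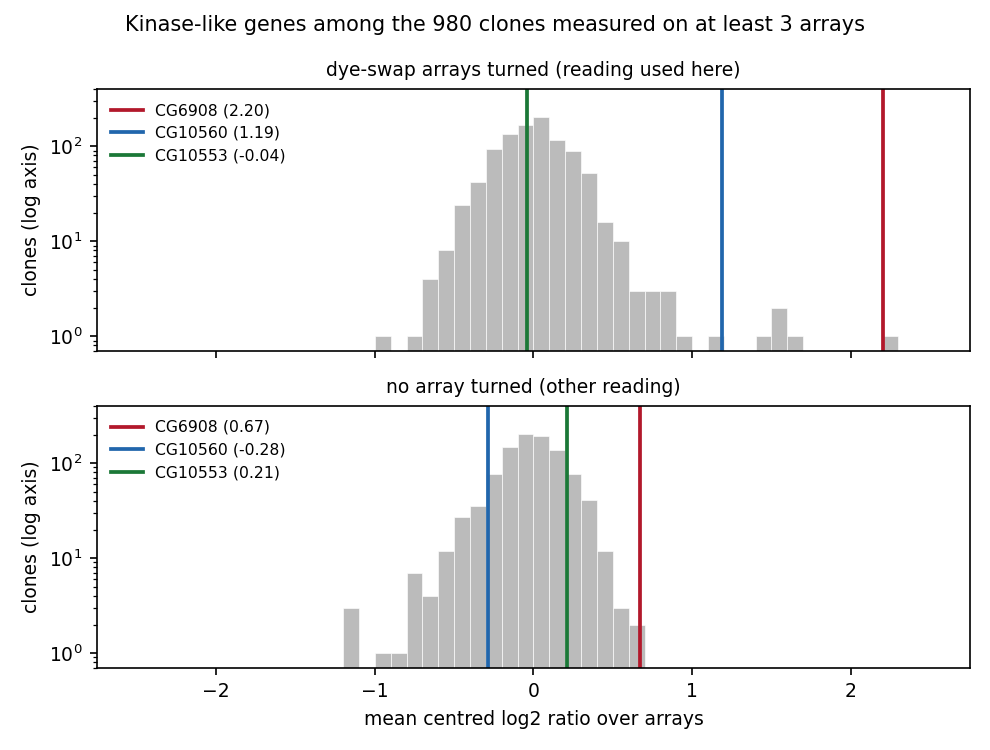
Distribution of the mean centred log2 ratio over the 980 clones measured on at least 3 arrays, with the number of clones on a log axis, under the reading used here (top) and the other reading (bottom). Lines mark CG6908 at 2.20, CG10560 at 1.19 and CG10553 at -0.04 in the top panel, and at 0.67, -0.28 and 0.21 in the bottom panel.

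The other 41 family genes were thinly covered. Of these, 16 had a clone, 6 had a value and 2 were measured on at least 3 arrays. pkm, also known as CG1561, had centred ratios of -0.27, -0.42, -0.78 and -0.05 on arrays 1 to 4, below 0 on each. Of the 980 clones, 15.7% were below 0 on every array that measured them. The mean of pkm was -0.38 ± 0.31 (SD, n = 4), which did not pass limma's test (adjusted p = 0.33). With the columns unturned that mean was 0.03. CG31974 stood at 0.28, -0.10, 0.48 and -0.19, with array values on either side of 0, and had a mean of 0.12 ± 0.32 (SD, n = 4; limma adjusted p = 0.813). Limma called 0 of the 2 in either direction, and pkm had an unadjusted p of 0.0246. Over all 980 clones, 6.84% had an unadjusted p under 0.05 with a higher ratio and 5.31% with a lower one. The median of these 2 means was -0.13, against 0.0037 over all 980 clones.

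The remaining 4 had a value on array 1 alone. CG5126 was the highest at 0.81, above 97.4% of the clones of that array. Its duplicate spots differed by 0.53, against a median of 0.24 over array 1. CG16898 stood at 0.18, CG13360 at -0.33 and CG7135 at -0.66. JhI-26, named for its induction by juvenile hormone, and CHKov2 had clones without a value, and CHKov1, known for alleles linked to resistance to a fly virus, had no clone named for it. Over the whole family, 11 of 51 genes were measured, and under the reading used here CG6908 and CG10560 had the highest ratios among them. With the columns unturned they stood at 0.67 and -0.28, below CG5126 at 0.81 on array 1.

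The clones with centred ratios most like those of CG6908 over arrays 1, 2 and 4 were Jheh2, Cyp4e2, Cyp4p1, Cyp6a20 and Obp56d. The root mean square difference from CG6908, among 236 clones of named genes on these arrays, was 0.54 for Jheh2, 0.64 for Cyp4e2 and 1.31 for Cyp4p1. It was 1.35 for Cyp6a20 and 1.62 for Obp56d. Jheh2 encodes an epoxide hydrolase of juvenile hormone, the Cyp genes encode cytochrome P450 enzymes, and Obp56d an odorant-binding protein. On the arrays that measured CG6908, where it averaged 2.20, Jheh2 averaged 1.69 and Obp56d, the last named, 0.60.

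For CG10560 the nearest of 228 clones over arrays 2, 3 and 4 were Jheh2, at a root mean square difference of 0.28, Cyp4e2 at 0.40 and a second clone of Jheh2 at 0.46. Cyp6a20 followed at 0.57 and MSBP, a membrane protein that binds steroids, at 0.61. The nearest clone of Jheh2 had 1.63, 1.01 and 1.52 on arrays 2, 3 and 4, above CG10560 on arrays 2 and 4 and below it on array 3. These likenesses rest on 3 arrays that the clones share. CG6908 and CG10560 were chosen with their high ratios known, so the clones nearest to them were bound to have high ratios too. Nothing is read from the functions of these clones.

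Genes of ecdysteroid synthesis, breakdown and uptake gave little to set beside the kinase-like genes. Of 22 names listed 5 genes had a value, 2 were tested and limma called 0 in either direction, with 0 at an unadjusted p under 0.05. The sterol carrier genes Npc2a and Npc2b stood at 0.06 ± 0.27 (SD, n = 4; limma adjusted p = 0.913) and -0.25 ± 0.38 (SD, n = 3; limma adjusted p = 0.571). Oatp74D, the importer of ecdysone, had 0.40 on array 1 and -0.49 on array 2, and Npc1a had 0.35 and -0.32 on the same arrays. Start1 had -0.82 on array 2 alone. The median of the tested clones was -0.10.

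Among 31 genes of the ecdysone receptor and its response, 11 had a value, 3 were tested and limma called 0 in either direction, with 2 lower at an unadjusted p under 0.05, against 5.31% of all 980 clones. The median of the 3 tested clones was -0.32. The kinase gene Eip63E stood at -0.41 ± 0.25 (SD, n = 3; limma adjusted p = 0.34) and the repressor gene Blimp-1 at -0.32 ± 0.02 (SD, n = 3; limma adjusted p = 0.398). DopEcR, a receptor of dopamine and ecdysone, stood at -0.01 ± 0.20 (SD, n = 3; limma adjusted p = 0.998). A second clone of DopEcR had 0.13 on array 1 and 0.18 on array 2. The receptor gene EcR itself had -0.65 on array 1 and 0.11 on array 2. Its partner usp had 0.25 on array 1 alone. ImpL2 had 0.76 on array 1 and 0.19 on array 2, and ImpE2 had 0.21 and 0.34 on the same arrays. Hr39 had 0.085 on array 1 and 0.35 on array 3, and a second clone of it 0.29 on array 1. The clones of Hr78 had -0.38 and -0.23 on array 1 alone. Cth, listed under its older name Eip55E, had -0.01 on array 1 and -1.27 on array 2. The 2 clones of tai, a coactivator of the receptor, disagreed, with 0.44 and -0.03 on arrays 1 and 4 for the first and 4.35 on array 4 alone for the second.

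Of the other enzyme lists, 7 cytochrome P450 genes were tested, with 3 called higher, 1 called lower and a median of 0.16. Of the 980 clones, 1.22% were called higher and 0.204% lower. The 3 called higher were Cyp4e2, Cyp6a20 and Cyp4p1, already named among the clones nearest to CG6908. Of 3 tested glutathione and UDP-glycosyl transferase genes, 1 was called higher and 0 lower, with a median of 0.04, beside the same shares of all clones. These lists were chosen with earlier results of these data known, so nothing is read from the counts. In the list of regulators of the response to foreign compounds maf-S was tested, at 0.16 ± 0.28 (SD, n = 3; limma adjusted p = 0.725), and Keap1, the inhibitor of the CncC factor, had 0.39 on array 1 and 0.65 on array 2.

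Of the markers of head tissue, 7 of 16 eye genes (Arr1, chp, trpl, inaC, inaD, trp and rdgB) and 4 of 10 neuronal genes (Sap47, Rab3, Sh and nSyb) had a value. Family genes are known from fat body, gut and Malpighian tubule, whose markers were therefore set beside them. Of 9 fat body markers 6 had a value, and limma called 0 of their 3 tested clones, with 1 higher at an unadjusted p under 0.05, against 6.84% of all 980 clones. These were FASN1 at 0.40 ± 0.09 (SD, n = 3; limma adjusted p = 0.326) and the clones of apolpp at 0.12 and 0.07. On fewer arrays, fon had 0.32 and 0.18 and Lsp2 -0.21 and -0.0035, both on arrays 1 and 2. Desat1 had -0.09 and 0.04 on arrays 3 and 4, and a second clone of it 0.26 on array 1. Fbp2 had -0.335 on array 1 alone. Of 16 gut markers 3 had a value, with Amyrel at 0.09 ± 1.21 (SD, n = 3) and Jon66Cii at -0.0006 ± 0.29 (SD, n = 4), and Jon25Bi at 0.92 on array 1 alone. Of 6 Malpighian tubule markers Irk2 had -0.23 on array 2 and salt 0.23 on array 1, and of 7 testis markers ocn was at 0.44 ± 0.27 (SD, n = 3; limma adjusted p = 0.33). The tested eye clones had a median of -0.29, from -0.45 for chp to 0.26 for Arr1. The tested neuronal clones had a median of 0.17, from -0.11 for Rab3 to 0.20 for Sh. Limma called 0 of these eye and neuronal clones, with 1 eye clone lower at an unadjusted p under 0.05, against 5.31% of all clones. A ratio gives no level of a marker, and the part of these tissues in the ratios of CG6908 and CG10560 was not tested.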

How the data were processed

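Heads were measured on 4 arrays. Per the series' design text, the authors used GenePix Pro 6.0 for the scans and a ratio-based normalization in Acuity 4.0 that ignored spots with raw intensity under 100. Spots then had to pass limits on saturated pixels (under 3%), flags, uniformity (R2 of 0.6 or more) and signal over noise (3 or more). The deposited values, 1 column per array, are ratios normalized by the authors, per the labels, and were taken as log2. Their log base, numerator and centring are unknown here, and the column medians were 0.73, 0.01, 0.18 and 0.59 on arrays 1 to 4.

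The 27648 spots were averaged in neighbouring pairs into 13824 clones, since 7558 of 7558 pairs named on both spots had the same gene. Names came from the platform annotation, in which 15116 spots had 1 symbol, 102 several and 12430 none. Of those with 1 symbol, 14894 were matched to RefSeq's Release 6 table by gene number. Arrays 1 to 4 measured 5095, 3169, 1101 and 812 clones, and the number of arrays limits the precision. Dye-swap arrays were turned, and each array was centred. The 980 clones on at least 3 arrays were fitted with limma 3.58.1 in R 4.3.3 as a one-class, two-sided test with Benjamini-Hochberg adjustment, tested on simulated data. The authors' one-class SAM 2.21 was not run here.

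The genes and lists were chosen with earlier results of these data known. Named were all 10 genes, other family genes with a value, up to 4 genes of each list by number of arrays and size, and the 5 clones nearest to CG6908 and CG10560. EcR, usp, tai, ImpL2, ImpE2, Hr39, Hr78, Jon25Bi, Start1, Desat1 and Fbp2 were chosen after their values were seen. The family genes on 1 array and the flanking genes were chosen after their values were seen as well. So was the use of RefSeq's family codes in place of protein similarity, for which no sequences were used here. CG34028 was on the list of other family genes but has no such code, and no clone named for it, and was left out of the counts. List names that RefSeq's table did not match to 1 gene were left without a value. Alternatives were no centring, centring on all clones, the other reading, leaving out each array, either spot, a dye term, other minimum numbers of arrays and an unmoderated test.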

Additional observations from a re-analysis of the deposited data

Results flagged for a closer look

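For CG10553 the drug ratio lay on opposite sides of 0 in the 2 dye orientations, at 0.22 and 0.13 on arrays 1 and 2 and at -0.19 and -0.31 on arrays 3 and 4, a deviation of 0.21 of each orientation from their mean (0.2112 before rounding). Such a split was present in 18.9% of the 366 clones measured on every array, and limma's dye term for CG10553 had an adjusted p of 0.397. The gut protease gene Jon66Cii split in the same way, at 0.34 and 0.14 against -0.25 and -0.24, a deviation of 0.24, where limma's dye term had an adjusted p of 0.345. In GstT4, array 4 lay apart from the others, at -0.32 against 0.14, 0.14 and 0.21, a gap of 0.862 of the whole range. In Cyp313a1, array 4 also lay apart, at -0.51 against -0.89, -0.89 and -0.90, a gap of 0.968 of the range. Among 16 clones on 4 arrays examined for such gaps, chance gives about 1 in 20.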

How the results depend on the processing

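CG6908 had a mean of 2.12 to 2.33 whichever of its arrays was left out, and CG10560 one of 1.10 to 1.25. Without centring CG10560 was at 0.95. Under the other reading of the columns CG6908 was at 0.67 and CG10560 reversed to -0.28, and the same reading without centring, added after seeing the data, gave 1.18 and 0.060. Centring on all clones, either spot alone, both spots only and the dye term moved these means by less than 1 SD. Limma called 14 clones (12 higher, 2 lower). The number was 5 (5 higher, 0 lower) without centring and 5 to 23 with an array left out, being 5, 23 and 7 without arrays 1, 2 and 3. It was 7 with the first spots and 28 with a dye term. Limma called 0 clones under the other reading (32 higher and 54 lower at an unadjusted p under 0.05), but 32 under that reading without centring. It called 0 among 2484 clones on at least 2 arrays (89 and 147), and the unmoderated test called 0 (60 and 45). The causes of these changes were not tested. The number of arrays, and missing values on arrays 3 and 4, limit what can be said of the other genes.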
